A study of Mus with 17 samples.

Results

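Transcripts of the angiotensin and endothelin systems were followed in the abdominal aorta of mice through 5 rows of the deposited tables, 1 transcript each of Ace (ENSMUST00000001963), Agtr1a (ENSMUST00000066412), Edn1 (ENSMUST00000021796), Ednra (ENSMUST00000034029) and Ednrb (ENSMUST00000022718). They were chosen by identifier and are 5 of the 39614 transcripts listed for every library, and all 5 were among the 29983 with a signal of at least 1 in at least 5 libraries, which were tested. All mice were wild-type C57BL/6, a common inbred strain, and each treatment lasted 42 days. The Control group (n = 5) received saline and double distilled water, the AngII group (n = 6) angiotensin II at 500 ng/kg/min and double distilled water, and the AngII+neferine group (n = 6) the same dose of angiotensin II together with neferine, an alkaloid of the lotus plant, at 1 mg/kg/day. The study asked which genes differ between these groups, in the setting of blood pressure raised by angiotensin II. The labels used here give neither the age and sex of the mice, nor the route of infusion, nor how many animals stand behind a library, so p-values measure the spread between libraries, which may in part be technical.

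Angiotensin II is a peptide hormone that constricts arteries and raises blood pressure. Angiotensin-converting enzyme, encoded by Ace and carried on the surface of endothelial cells, releases it from its inactive precursor and also degrades bradykinin, a vasodilator. A receptor for angiotensin II in rodents is encoded by Agtr1a, and the related Agtr1b was not followed here. Endothelin-1, encoded by Edn1 and made mostly by the endothelium, is a second constrictor peptide, and angiotensin II is known to induce Edn1 in cultured vascular cells. The receptor encoded by Ednra lies on smooth muscle and mediates constriction, whereas the one encoded by Ednrb lies mainly on endothelial cells, where it promotes nitric oxide release and clears the peptide. An infusion of angiotensin II supplies the hormone from outside, downstream of Ace.

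The values are abundance signals on a linear scale whose unit is not named, so levels are compared between libraries for 1 transcript at a time and not between genes. The number of reads behind a signal is unknown. Total signal per library was 392615 to 569873. AngII replicates 2 and 6 and AngII+neferine replicate 1 stood apart from the other libraries: the 10 highest transcripts took 31.0% of the signal in AngII replicate 2 and 29.0% in AngII+neferine replicate 1, against at most 21.8% in any other library, and the median Spearman rho of AngII replicate 6 with the other libraries was 0.455, against at least 0.606 in the others. The Control and AngII tables list 43752 transcripts each, whereas 41642 are listed for each AngII+neferine library. An effect of neferine and one of its separate set of tables therefore cannot be told apart. In bulk tissue, fewer cells of a type and less RNA per cell cannot be told apart either. Marker genes of aortic cell types could not be looked up, because the tables do not pair identifiers with gene names.

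None of the 5 transcripts differed between any of the groups beyond the spread of the libraries. In AngII against Control, 0 of 5 passed at an adjusted p under 0.05 (limma with Benjamini-Hochberg adjustment over all 29983 transcripts), where 0% of all transcripts passed. In AngII+neferine against AngII the count was again 0 of 5, against 0% of all, and in AngII+neferine against Control it was 0 of 5, against 0.0367% of all. At an unadjusted limma p under 0.05 the count was 0 of 5 in each comparison, where 7.25%, 5.22% and 8.74% of all transcripts lay. The exact rank sum test called 0 of the 15 member values, with 0 at an unadjusted p under 0.05. It also called 0 of all transcripts in each comparison, so its adjusted result does not set the members apart and is no independent support. Nor does the adjusted limma result set the members apart in AngII against Control or in AngII+neferine against AngII, where 0% of all transcripts passed. The libraries of the groups overlapped for every member in every comparison, while 0.807%, 0.263% and 2.08% of all transcripts had groups that did not overlap. For AngII against Control, 4 members had a log2 fold change above 0 and 1 below, with a median of 0.090 against -0.026 over all transcripts. For AngII+neferine against AngII, 3 lay above and 2 below, with a median of 0.0077 against -0.0042, and for AngII+neferine against Control 4 lay above and 1 below, with a median of 0.057 against -0.028. With so few members, all of them within the spread, these counts are a description of direction only.

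**Figure D1:**
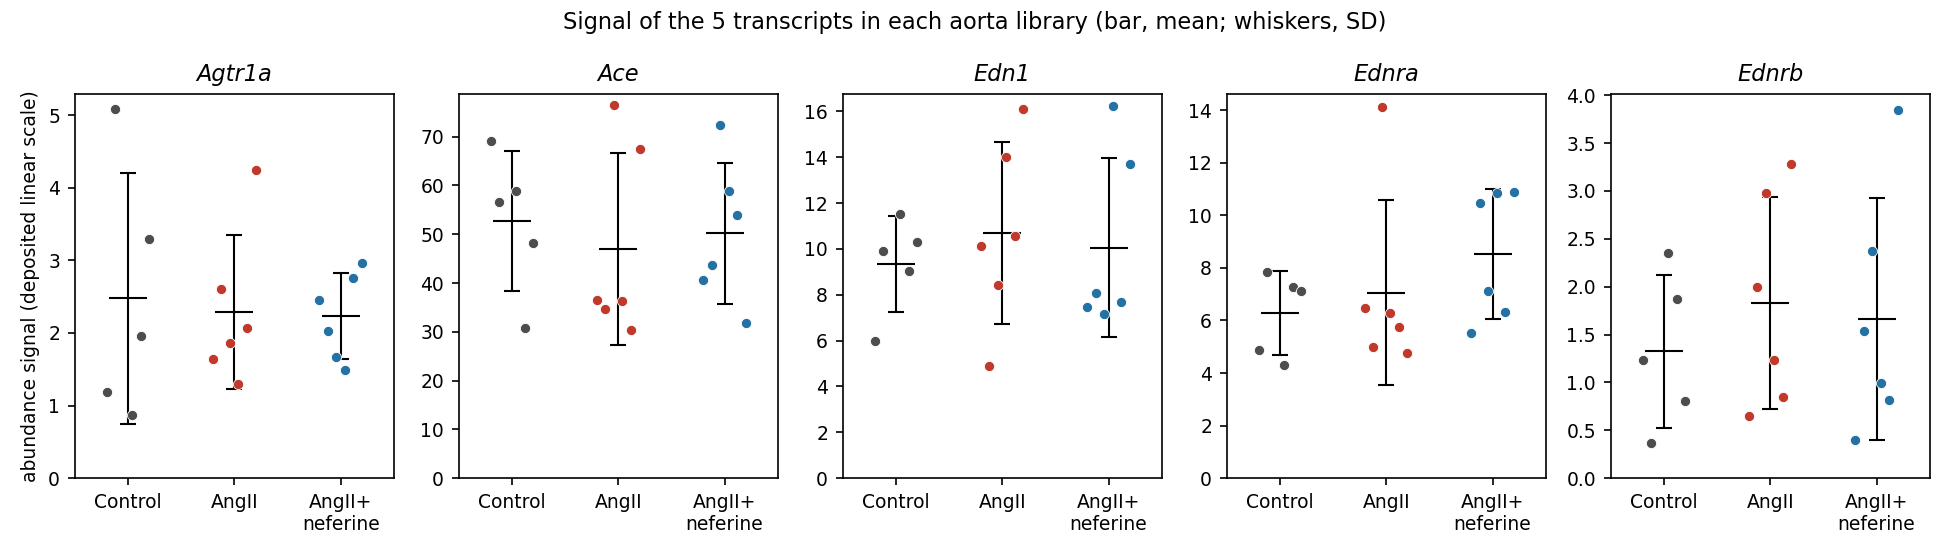
Abundance signal (y axis, deposited linear scale, starting at 0 and different for each transcript) of Agtr1a, Ace, Edn1, Ednra and Ednrb in each library of the Control (n = 5), AngII (n = 6) and AngII+neferine (n = 6) groups. Points are libraries, set from left to right by replicate number within a group, bars are means and whiskers SD; the groups overlap in every panel, and the AngII library at 14.1 in the Ednra panel lies far above the other 5.

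Ace had a signal of 69.0, 56.6, 58.9, 30.8 and 48.2 in Control replicates 1, 2, 4, 5 and 6. In AngII its lowest, median and highest values were 30.3, 36.4 and 76.4, and with neferine they were 31.9, 48.8 and 72.3. All but 1 Control library lay above 48, whereas 4 of the 6 AngII libraries lay between 30.3 and 36.4 and the other two, replicates 3 and 6, at 76.4 and 67.6. The AngII values thus fell into a low set of 4 and a high pair that reached the top of the Control range. Mean signals were 52.7 ± 14.3 for Control (SD, n = 5), 47.0 ± 19.7 for AngII (SD, n = 6) and 50.2 ± 14.5 for AngII+neferine (SD, n = 6). For the enzyme that makes angiotensin II, the difference of AngII from Control was -0.21 ± 0.28 (SE) on the log2(signal + 1) scale, with a 95% interval of -0.80 to 0.38 (limma, adjusted p = 0.880). This value ranged from -0.38 without Control replicate 5 to -0.099 without Control replicate 1, and the difference of the group medians on this scale was -0.62. AngII+neferine differed from AngII by 0.14 ± 0.27 (SE; limma, adjusted p = 0.979) and from Control by -0.069 ± 0.28 (SE; limma, adjusted p = 0.965). RefSeq lists 3 curated transcripts of Ace, and only the 1 row chosen here was followed.

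Agtr1a, a receptor transcript of the angiotensin system, was the one whose group estimates lay closest together. Its signal was 1.18, 5.08, 0.872, 1.96 and 3.29 in Control replicates 1, 2, 4, 5 and 6. The AngII libraries had a lowest, median and highest signal of 1.29, 1.96 and 4.25, and the AngII+neferine libraries of 1.49, 2.24 and 2.96. Control alone held both the lowest and the highest of the 17 values, a 5.83-fold range, and every AngII and AngII+neferine library lay inside it. The coefficient of variation was 69.9% in Control, 46.2% in AngII and 26.6% with neferine; the difference in spread was not tested. The log2 fold change was 0.0024 ± 0.30 (SE) for AngII against Control, with a 95% interval of -0.63 to 0.63 (limma, adjusted p = 0.999). Its sign turned when libraries were scaled to their totals, to -0.090. AngII+neferine differed from AngII by 0.0077 ± 0.29 (SE; limma, adjusted p = 0.998), and from Control by 0.010 ± 0.30 (SE; limma, adjusted p = 0.995), which became -0.059 on scaling to the totals. As a fold of (signal + 1), the interval for AngII against Control ran from 0.647 to 1.55. For this low transcript the added 1 is a large part of the value and pulls the fold toward 1.

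Edn1, which encodes the precursor of endothelin-1, had a signal of 5.97, 9.89, 11.5, 9.03 and 10.3 in Control replicates 1, 2, 4, 5 and 6. In AngII the lowest, median and highest values were 4.91, 10.3 and 16.1, and with neferine 7.16, 7.89 and 16.2. In AngII, 2 of 6 libraries lay above every Control library, replicates 4 and 6 at 14.0 and 16.1, and 1 lay below every Control library, replicate 2 at 4.91. AngII replicates 2 and 6 are among the libraries that stood apart over all transcripts. With neferine, replicates 4 and 6 lay at 16.2 and 13.7 and the other 4 libraries between 7.16 and 8.09. Mean signals were 9.34 ± 2.08 for Control (SD, n = 5), 10.7 ± 3.98 for AngII (SD, n = 6) and 10.1 ± 3.90 for AngII+neferine (SD, n = 6). The ligand transcript differed between AngII and Control by 0.13 ± 0.28 (SE) on the log2 scale, with a 95% interval of -0.47 to 0.72 (limma, adjusted p = 0.932). AngII+neferine differed from AngII by -0.068 ± 0.27 (SE; limma, adjusted p = 0.992) and from Control by 0.057 ± 0.28 (SE; limma, adjusted p = 0.972), the latter at -0.021 on scaling to the totals. As a fold of (signal + 1), the interval of AngII against Control ran from 0.723 to 1.65, so a doubling on this scale lay outside it.

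Ednra, the constrictor receptor of endothelin, had the smallest p of the 5 in both comparisons with neferine, and neither passed. Its signal was 4.86, 7.86, 4.30, 7.26 and 7.12 in Control replicates 1, 2, 4, 5 and 6. In AngII the lowest, median and highest values were 4.77, 6.01 and 14.1, and with neferine 5.53, 8.80 and 10.9. The AngII group was narrow apart from replicate 3, since its other 5 libraries lay between 4.77 and 6.48. With neferine, replicates 2, 4 and 6 lay at 10.5, 10.8 and 10.9, above every Control library, and the other 3 at 5.53 to 7.13, inside the Control range. Mean signals were 6.28 ± 1.59 for Control (SD, n = 5), 7.06 ± 3.52 for AngII (SD, n = 6) and 8.53 ± 2.47 for AngII+neferine (SD, n = 6). The log2 fold change of AngII+neferine against Control was 0.38 ± 0.27 (SE), with a 95% interval of -0.18 to 0.94 (limma, unadjusted p = 0.175, adjusted p = 0.733). Against AngII it was 0.29 ± 0.25 (SE; limma, unadjusted p = 0.273, adjusted p = 0.957). Without AngII replicate 3 it was 0.49 ± 0.22 (SE; limma, unadjusted p = 0.042, adjusted p = 0.921). That fit is 1 of 17 that each left out a single library. AngII against Control gave 0.090 ± 0.27 (SE; limma, adjusted p = 0.951), which became -0.11 without AngII replicate 3 and -0.0030 on scaling to the totals.

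Ednrb, the endothelin receptor of endothelial cells, had the widest range of the 5 over the libraries. Its signal was 1.24, 0.366, 2.35, 1.87 and 0.803 in Control replicates 1, 2, 4, 5 and 6. In AngII the lowest, median and highest values were 0.650, 1.61 and 3.28, and with neferine 0.404, 1.27 and 3.84. Each group held libraries under 1, and the highest values were in AngII and AngII+neferine libraries. The whole range spanned 10.5-fold over the 17 libraries. Only 10 of the 17 reached a signal of 1, and none was listed at 0. AngII replicates 3 and 6, at 2.98 and 3.28, lay above every Control library, as did AngII+neferine replicates 3 and 6, at 2.38 and 3.84. The coefficient of variation was 60.1% in Control, 60.7% in AngII and 76.3% with neferine. The log2 fold change was 0.26 ± 0.35 (SE) for AngII against Control, with a 95% interval of -0.48 to 1.00 (limma, adjusted p = 0.880). With a smaller pseudocount of 0.1 it was 0.44 (limma, adjusted p = 0.872). It was 0.087 without Control replicate 2, 0.12 without AngII replicate 6 and 0.044 without the 3 libraries that stood apart, and 0.41 without Control replicate 4. AngII+neferine differed from AngII by -0.12 ± 0.33 (SE; limma, adjusted p = 0.986) and from Control by 0.14 ± 0.35 (SE; limma, adjusted p = 0.939). Of the 3 curated RefSeq transcripts of Ednrb only the 1 chosen row was followed.

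**Figure D2:**
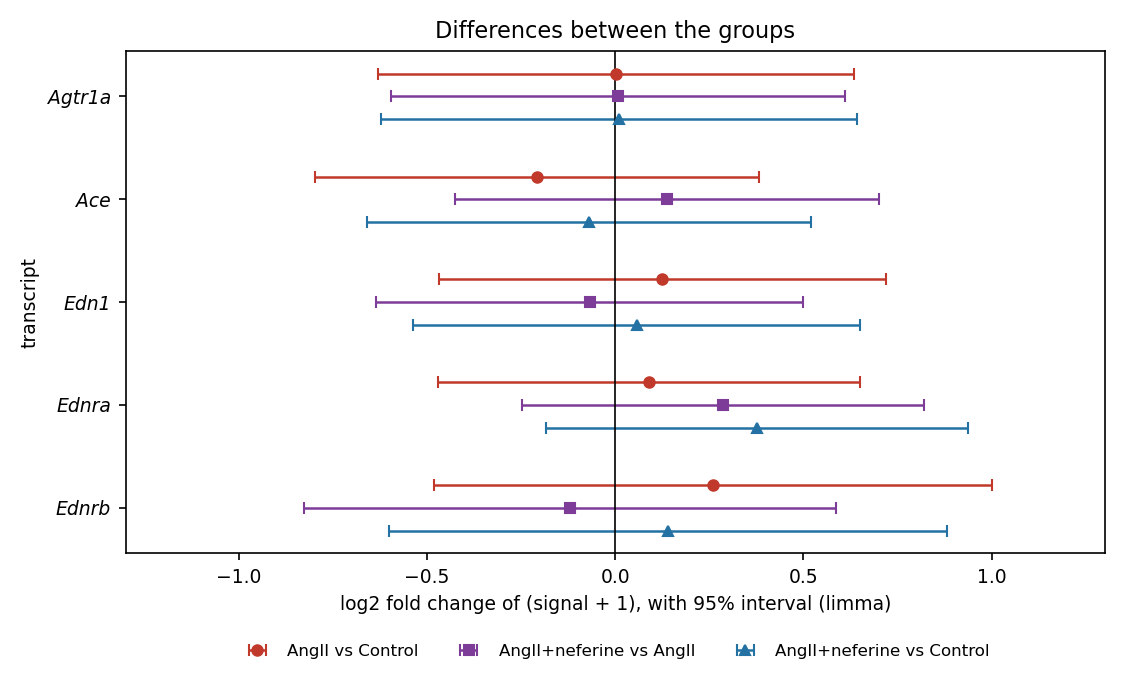
Log2 fold change of (signal + 1) (x axis) for Agtr1a, Ace, Edn1, Ednra and Ednrb (y axis) in AngII against Control, AngII+neferine against AngII and AngII+neferine against Control. Markers are limma estimates from the fit of all 17 libraries and whiskers 95% intervals; each of the 15 intervals includes 0, and the estimate farthest from 0 is that of Ednra in AngII+neferine against Control, at 0.38.

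The intervals show which sizes of change in (signal + 1) were not compatible with the fit. For the low transcripts Ednrb and Agtr1a they do not bound the fold of the signal itself. With a pseudocount of 0.1, Ednrb in AngII against Control was 0.44 ± 0.58 (SE) on the log2 scale. All 15 included no change, and as folds of (signal + 1) their bounds lay between 0.564 and 2.002. The widest was that of Ednrb in AngII against Control, from 0.717 to 2.002, and the fold of Ednra in AngII+neferine against Control could lie between 0.880 and 1.91. A p that missed the threshold does not show that the levels were equal.

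**Figure D3:**
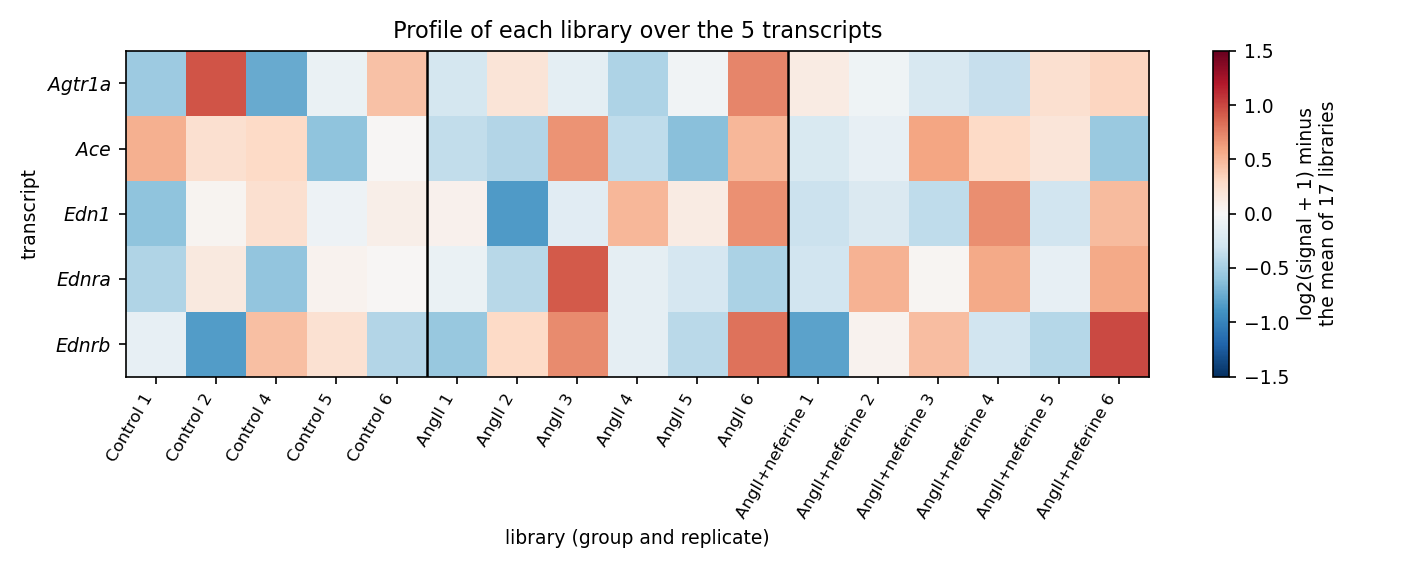
Deviation of log2(signal + 1) from the mean of the 17 libraries (colour) for the 5 transcripts (rows) in each library (columns, with black lines between the groups). AngII 3 is high in Ace, Ednra and Ednrb, AngII 6 is high in all but Ednra, and no group has 1 colour across a row.

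Libraries differed in which members were high. AngII replicate 3 held the highest Ace value of all 17 libraries, 76.4, and the highest Ednra value, 14.1, while its Agtr1a value of 1.86 and its Edn1 value of 8.40 lay inside the Control range. AngII replicate 6, at 4.25, had the highest Agtr1a value outside Control, and it ranked second of 17 in Edn1 and Ednrb but second lowest in Ednra, at 4.77. AngII+neferine replicate 6 held the highest Ednrb value, 3.84, and the third lowest Ace value, 31.9. Control replicate 2 combined the highest Agtr1a value, 5.08, with the lowest Ednrb value, 0.366. No library was at the top in both angiotensin members or in all 3 endothelin members.

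Ratios of receptor transcripts, 1 row per gene, were formed within libraries and compared between groups. Their size does not show which receptor was more abundant, since the unit is not named and protein was not measured. Because 1 is added to both signals, these ratios still depend in part on the scale of a library, above all where Ednrb or Agtr1a is low. Ednra over Ednrb, as a log2 ratio of (signal + 1), averaged 1.69 ± 0.777 for Control (SD, n = 5), 1.52 ± 0.665 for AngII (SD, n = 6) and 1.92 ± 0.530 for AngII+neferine (SD, n = 6). The AngII+neferine libraries lay between 1.27 and 2.57, inside the Control range of 0.663 to 2.70, and the AngII libraries between 0.432 and 2.18. The difference in means was -0.17 for AngII against Control, 0.41 for AngII+neferine against AngII and 0.23 for AngII+neferine against Control, with adjusted p of 0.825, 0.812 and 0.825 (two-sided exact permutation tests, Benjamini-Hochberg over 6 tests). Unadjusted, these p were 0.703, 0.271 and 0.569 by the same exact permutation tests, whose smallest possible p is 0.00216. The first of these differences rested on single libraries, since it was 0.046 without AngII replicate 6 and 0.081 without Control replicate 2, and it was -0.34 with a pseudocount of 0.1. With 1 library left out, AngII+neferine against AngII ranged from 0.19 to 0.54, and AngII+neferine against Control from -0.022 to 0.49. The difference of AngII+neferine from AngII turned below 0 without the 3 libraries that stood apart.

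Agtr1a over Ednra set a transcript of an angiotensin receptor against one of the constrictor receptor of endothelin. The log2 ratio averaged -1.17 ± 0.427 for Control (SD, n = 5), -1.26 ± 0.785 for AngII (SD, n = 6) and -1.54 ± 0.524 for AngII+neferine (SD, n = 6). AngII held both the lowest and the highest value of all libraries, -2.40 in replicate 3 and -0.14 in replicate 6. The difference in means was -0.087 for AngII against Control, -0.28 for AngII+neferine against AngII and -0.37 for AngII+neferine against Control, with unadjusted p of 0.825, 0.478 and 0.232 and adjusted p of 0.825, 0.825 and 0.812 (two-sided exact permutation tests). The first of these became 0.14 without AngII replicate 3 and 0.071 without Control replicate 2. With 1 library left out, AngII+neferine against AngII ranged from -0.51 to -0.054, and it turned above 0 without the 3 libraries that stood apart. Neither receptor ratio differed between groups beyond the spread of the libraries.

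**Figure D4:**
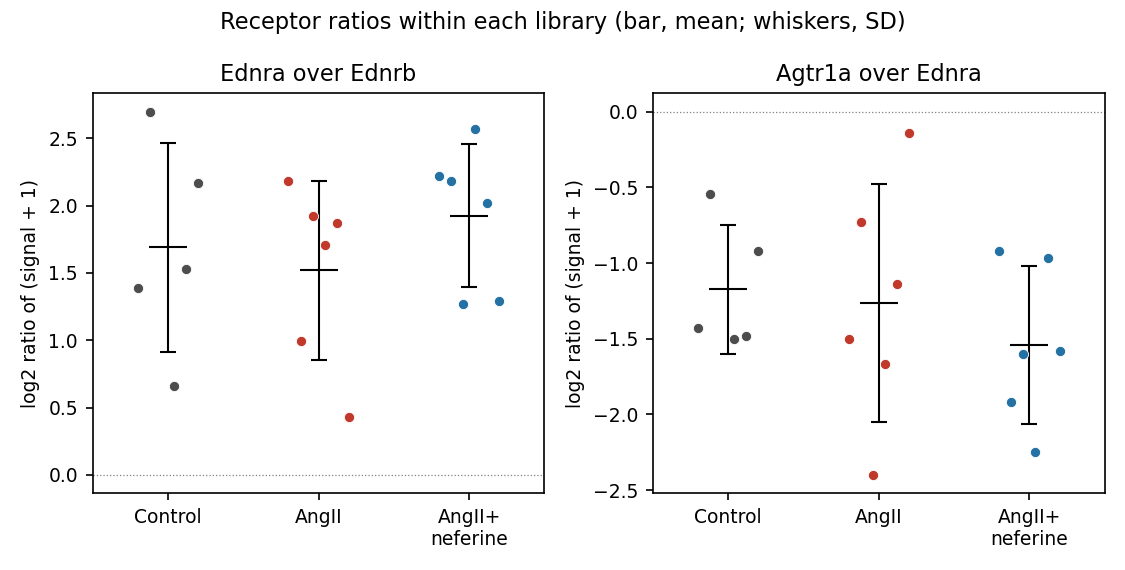
Log2 ratio of (signal + 1) within each library (y axis) of Ednra over Ednrb (left) and of Agtr1a over Ednra (right), for the Control (n = 5), AngII (n = 6) and AngII+neferine (n = 6) groups. Points are libraries, set from left to right by replicate number within a group, bars are means and whiskers SD; the groups overlap in both panels, and AngII holds the values farthest apart on the right, -2.40 and -0.14.

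No correlation between members was detected over all 17 libraries, and the values within single groups differed widely. Over the 17 libraries, Pearson's r of log2(signal + 1) for the 10 pairs of members lay between -0.10 (Agtr1a and Ednrb) and 0.19 (Edn1 and Ednra), and 0 of 10 pairs had a permutation p under 0.05, with a Benjamini-Hochberg adjusted p of 0.893 for every pair. For the endothelin receptors Ednra and Ednrb, r was 0.18 (permutation p = 0.479) and Spearman's rho 0.056 (permutation p = 0.833). Their r was -0.29 without AngII replicate 3 and AngII+neferine replicate 6, the libraries farthest from the median of Ednra, so its sign rested on those. The ligand Edn1 and its receptor Ednra had an r of 0.19 (permutation p = 0.460) and a rho of 0.11 (permutation p = 0.689), and r was -0.085 without AngII replicate 2 and AngII+neferine replicate 4. Ace and Agtr1a had an r of -0.044 (permutation p = 0.868) and a rho of -0.20 (permutation p = 0.436), and r was -0.38 without AngII replicate 6 and Control replicate 2. Within the 11 Control and AngII libraries the 3 pairs had r of -0.010, -0.051 and 0.10, and within the 6 AngII+neferine libraries 0.58, 0.75 and -0.74. Over all 10 pairs, r within the 6 AngII libraries ran from -0.43 for Agtr1a and Ednra to 0.85 for Ace and Ednrb, with 0.64 for Agtr1a and Ednrb. Within the 6 AngII+neferine libraries, Ace and Ednrb had an r of -0.20 and Agtr1a and Ednrb one of 0.11. Groups of 5 or 6 libraries are too few for a stable r, and in the 5 Control libraries the same 3 pairs also differed. There r was 0.90 for Agtr1a and Ednra, -0.89 for Agtr1a and Ednrb and -0.24 for Ace and Ednrb. The values within groups and sets of tables thus differed for the same pair. With so few libraries these differences are a description only, and they were not tested.

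Transcripts that followed a member most closely over the 17 libraries were sought among all tested transcripts. The highest Pearson r was 0.86 for Ednra, with ENSMUST00000059672, whose signal ranged from 0.806 to 7.85. For Edn1 it was also 0.86, with ENSMUST00000191060, at 0.0789 to 2.58. For Agtr1a, Ednrb and Ace the highest r was 0.82, 0.82 and 0.79. Each is the highest r over all transcripts tested, across libraries of the same study, and is given as a description only.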

How the data were processed

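RNA of 17 abdominal aorta samples was sequenced after ribosomal RNA depletion, per the labels' protocols. Each deposited file holds 1 linear abundance signal per transcript and no counts; its header names the sample but no unit. For aligner, quantification tool, build and annotation, a statement is not given in the sources used here; limma is named, without a version or role, in the submitters' processing notes. The 5 identifiers came with their gene symbols from the choice of members, not from the files, and that pairing was not checked against an annotation. RefSeq symbols (GRCm38.p6) gave the number of curated transcripts. The 5 symbols matched, and 0 Ensembl identifiers did, so the other genes of both systems and the cell type markers were not tested. Members and lists were chosen with earlier results of these data known.

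Signals were tested as log2(signal + 1) with limma 3.58.1 in R 4.3.3 (trended, robust empirical Bayes, a term per group, no covariate, all 17 libraries in 1 fit), with Benjamini-Hochberg adjustment over 29983 transcripts and a threshold of 0.05. The added 1 understates fold changes of low transcripts. The script was tested on simulated data. The changes put in were larger than any estimate of the members, and in transcripts less low than Agtr1a and Ednrb. That test therefore does not tell whether small changes of the members would be found. Receptor ratios were compared by exact permutation tests, and correlations by 100000 permutations. The rule for named genes was all 5 members in each comparison, and for each the most correlated transcript, with at most 2 identifiers printed. No library repeated the values of another: in any pair, at most 0.414% of the shared transcripts had the same value above 0. Libraries made from the same animal would not be found this way. Alternatives covered pseudocounts, the filter, scaling, the libraries and groups fitted, library weights, the variance trend, a replicate block and a rank test.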

Additional observations from a re-analysis of the deposited data

Results flagged for a closer look

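Of 21 groups of values examined (5 transcripts and 2 receptor ratios in 3 groups), 1 had a library far from the others of its group, and chance gives about 5%. Ednra was at 14.1 in AngII replicate 3, and the next highest AngII library was at 6.48. The same library held the highest Ace value of all 17, 76.4.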

How the results depend on the processing

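Across 28 alternatives per comparison, 0 members were called in any of the 3 comparisons, also with the replicate block, and the lowest adjusted p of any member was 0.520 (Ednra, AngII+neferine against Control). Of 420 member fold changes under alternatives 46 changed sign, all of them uncalled, and the cause was not tested. Some alternatives, such as no filter, no trend or leaving out a library of the third group, cannot move an estimate. The share that changed sign therefore understates how unsteady the signs were where they turned. Agtr1a changed sign under 8, 7 and 9 of the 28 alternatives in the 3 comparisons. Ednra in the comparisons with neferine and Ednrb in AngII against Control changed sign under 0 of 28. The same held for Ace in AngII against Control and in AngII+neferine against AngII. A steady sign does not make these uncalled values a difference. In AngII against Control, Agtr1a was -0.090 on scaling to the totals, -0.19 with library weights and -0.23 without the 3 libraries that stand apart, and Ednra was -0.0030 on scaling to the totals and -0.21 as a difference of medians beside the exact rank sum test. In AngII+neferine against AngII, Ednrb was 0.048 with library weights and 0.26 without the 3 libraries. In AngII+neferine against Control, Agtr1a was -0.059, -0.047 and -0.014 under totals, weights and without the 3 libraries, and Edn1 was -0.021 under totals and -0.29 as a difference of medians. Without the 3 libraries, Ednra over Ednrb was 0.23 (AngII against Control) and -0.055 (AngII+neferine against AngII), Agtr1a over Ednra was 0.011 (AngII+neferine against AngII), and r of Agtr1a and Edn1 was -0.011.

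With 1 library left out at a time, AngII against Control ranged from -0.19 to 0.24 in Agtr1a, -0.38 to -0.099 in Ace, -0.0099 to 0.31 in Edn1, -0.11 to 0.17 in Ednra and 0.087 to 0.41 in Ednrb. AngII+neferine against AngII ranged from -0.085 to 0.15 in Agtr1a, 0.025 to 0.29 in Ace, -0.25 to 0.057 in Edn1, 0.21 to 0.49 in Ednra and -0.32 to 0.040 in Ednrb. AngII+neferine against Control ranged from -0.18 to 0.25 in Agtr1a, -0.25 to 0.049 in Ace, -0.084 to 0.13 in Edn1, 0.27 to 0.48 in Ednra and -0.057 to 0.30 in Ednrb. Ednra over Ednrb ranged from -0.43 to 0.081 (AngII against Control) and -0.022 to 0.49 (AngII+neferine against Control), and Agtr1a over Ednra from -0.31 to 0.14 (AngII against Control).

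Over all transcripts, limma called 0, 0 and 11 in the 3 comparisons, and over the alternatives 0 to 12, 0 to 15 and 0 to 106. Replicate numbers only name samples in the labels: deviations of the 16 same-numbered pairs correlated at -0.15 to 0.064, and 1 of 17 samples correlated best with its own number. The replicate block gave 0, 0 and 0 calls. Depth is unknown, so its part in the spread of the members was not tested.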
